A study of Mus musculus with 28 samples.

Results

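The genes described here are 51 regulators of pre-mRNA splicing. They are 20 heterogeneous nuclear ribonucleoproteins (hnRNPs, counting the PTB and PCBP proteins), 12 SR and TRA2 proteins, and 19 regulators grouped as tissue-regulated. The last group holds the NOVA, RBFOX, ELAVL, CELF, MBNL and KHDRBS families, Qk and Rbm45. Not all of its genes are restricted to certain tissues, and Elavl1 is ubiquitous. Members were found by an exact match of their symbols to the gene names of a raw count table. All 51 were present among its 25900 gene identifiers, and all 51 passed the count filter, which left 16110 genes for testing.

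Libraries of polyA RNA came from frontal cortex at 20 months of age, on a C57BL/6 background. The mutant allele was knocked into Tardbp, which encodes TDP-43, an RNA-binding protein, and carries Q331K, a substitution found in patients with amyotrophic lateral sclerosis. HOM denotes 10 libraries from homozygous mice (2 mutant alleles), HET 10 libraries from heterozygous mice (1 mutant allele) and WT 8 libraries from wild-type mice (0 mutant alleles). The allele sits at the mouse gene itself, so no transgene promoter drives it. The labels name no sex, litter or batch, and they do not say that each library is a separate animal. P-values therefore measure the spread between libraries, which may be partly technical.

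Splicing regulators bind short motifs in exons and introns of a pre-mRNA and steer the choice of splice sites. As general background, SR proteins bound in exons tend to favour their inclusion, and hnRNPs often oppose it, while RBFOX and NOVA proteins act in either direction according to where they bind. TDP-43 is itself an hnRNP-type protein that binds UG-rich RNA. Many of these genes, Tardbp among them, control their own transcript level through binding of the protein to its own RNA.

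The stretches of 3′ untranslated region (3′ UTR) shown first are the longest runs of alternating U and G among the members searched. These are letters that TDP-43 binds. In the coding transcript with the longest coding sequence of each gene (GENCODE vM21, GRCm38), a run of at least 12 bases was found in 3 of the 49 members with a 3′ UTR (6.1%). The share among all tested genes was 953 of 14569 (6.5%). For Elavl2 and Rbfox1 the transcript used has no annotated 3′ UTR, so these members were not searched. Capitals mark the run, written with T for U and 5′ to 3′ on the gene's strand.
Hnrnpd 3′ UTR: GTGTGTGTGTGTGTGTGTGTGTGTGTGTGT
Qk 3′ UTR: gaTGTGTGTGTGTGTGTGTGTGTGTGTGct
Hnrnpr 3′ UTR: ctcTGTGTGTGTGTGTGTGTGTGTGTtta
The run in Hnrnpd is 43 bases long, and the 30 bases printed lie at chr5:99958277-99958306 on the minus strand. The run in Qk is 26 bases long and lies within chr17:10204788-10204817 on the minus strand. The run in Hnrnpr is 23 bases long and lies within chr4:136351605-136351633 on the plus strand. In all 3 genes the run lies beyond the 3′ end of the gene as the deposited table gives it. Of these 3 genes, Hnrnpr alone was called lower in HOM cortex. A run of letters is a description, not a binding site.

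Promoters are shown for 4 of the 8 members that fell in HOM cortex, each with 1 RefSeq promoter window. Each is 300 bases from RefSeq (GRCm38.p6), from 250 bases before to 50 after the start of transcription. Capitals mark 3 motifs searched on both strands. The CCAAT box was searched as CCAAT, the GC box as GGGCGG and the TATA box as TATAAA, each also as the same letters read on the opposite strand. Copies of the GC box that overlap each other stand in 1 run of capitals.
Hnrnpk promoter: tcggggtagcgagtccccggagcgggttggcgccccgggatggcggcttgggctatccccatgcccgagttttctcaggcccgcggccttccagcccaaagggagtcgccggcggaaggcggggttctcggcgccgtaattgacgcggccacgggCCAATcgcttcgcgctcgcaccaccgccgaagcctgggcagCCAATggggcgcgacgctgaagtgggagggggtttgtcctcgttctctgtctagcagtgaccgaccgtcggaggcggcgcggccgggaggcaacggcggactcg
Ptbp2 promoter: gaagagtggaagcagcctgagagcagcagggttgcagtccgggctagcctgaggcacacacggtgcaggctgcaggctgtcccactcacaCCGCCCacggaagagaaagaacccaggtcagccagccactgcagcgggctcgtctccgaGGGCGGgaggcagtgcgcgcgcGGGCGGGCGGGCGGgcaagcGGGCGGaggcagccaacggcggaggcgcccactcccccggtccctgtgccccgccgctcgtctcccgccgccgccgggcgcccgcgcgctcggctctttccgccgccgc
Hnrnph2 promoter: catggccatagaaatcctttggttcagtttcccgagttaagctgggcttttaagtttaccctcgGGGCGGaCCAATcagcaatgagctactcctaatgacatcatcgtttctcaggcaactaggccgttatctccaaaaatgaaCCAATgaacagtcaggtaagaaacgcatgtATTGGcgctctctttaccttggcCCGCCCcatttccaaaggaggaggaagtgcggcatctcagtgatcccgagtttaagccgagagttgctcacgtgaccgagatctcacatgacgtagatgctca
Hnrnpa0 promoter: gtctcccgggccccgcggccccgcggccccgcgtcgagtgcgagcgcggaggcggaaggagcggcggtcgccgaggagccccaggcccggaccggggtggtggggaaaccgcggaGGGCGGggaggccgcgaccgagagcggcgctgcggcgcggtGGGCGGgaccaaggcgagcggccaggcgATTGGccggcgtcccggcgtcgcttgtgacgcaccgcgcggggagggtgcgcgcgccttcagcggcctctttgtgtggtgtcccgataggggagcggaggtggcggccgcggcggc
These windows lie at chr13:58402068-58402367 (minus strand) for Hnrnpk, chr3:119783339-119783638 (minus) for Ptbp2, chrX:134600929-134601228 (plus) for Hnrnph2 and chr13:58128507-58128806 (minus) for Hnrnpa0. GGGCGG was present in 70.3% of the 74 windows that matched 47 members, against 35.7% of all 32851 promoters. CCAAT was present in 48.6% of the members' windows and 37.4% of all promoters, and TATAAA in 9.5% and 13.6%. The members' windows were also richer in G and C, with a median of 63.2% against 52.7%. A match of letters is a description and not a site of binding.

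The 28 libraries held 30.46 to 74.91 M counts each. HOM 1 and HOM 2 had the lowest totals, at 32.8 and 30.5 M counts, and HOM 3 and WT 6 lay at the ends of the first principal component, so the results are also given without these pairs. Tardbp stood at 349 ± 18.9 CPM in HOM, 328 ± 13.3 CPM in HET and 321 ± 13.6 CPM in WT libraries (CPM, counts scaled to the library total, given as mean ± SD). It was higher in HOM than in WT by 0.12 on the log2 scale (SE 0.032, adjusted p = 0.0185, edgeR quasi-likelihood test), and gene counts do not separate the alleles. Of the markers of cortical neurons, astrocytes, oligodendrocytes, microglia and endothelium, 0 were at 0 in every library. In bulk tissue, fewer cells of a type and less RNA per cell cannot be told apart.

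Levels between genes are compared per kilobase of exon, as CPM per kb averaged over all 28 libraries. The exon lengths are from GENCODE vM21, and the annotation used for counting is not stated, so values per kb and their order are approximate. Srsf5, an SR protein, stood highest at 97.5 CPM per kb and the hnRNP Hnrnpa2b1 next at 87.5 CPM per kb. Khdrbs2, the gene of the KH-domain splicing factor SLM1, was lowest at 0.368 CPM per kb, and Hnrnpr was next at 3.23 CPM per kb. The exons of Hnrnpr in GENCODE vM21 span 22.2 kb, most of them in a long 3′ UTR, and this length lowers its value per kb. Part of that 3′ UTR lies beyond the gene end in the deposited table, so its reads may not have been counted. The same holds for Hnrnpd and Qk.

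Within the RBFOX family Rbfox1 reached 63.9 CPM per kb, ahead of Rbfox3 at 43.8 and Rbfox2 at 41.7 CPM per kb. Among the ELAVL genes Elavl3 stood at 31.5 CPM per kb, Elavl4 at 16.4, Elavl2 at 9.63 and the ubiquitous Elavl1 at 7.07 CPM per kb. The ranges over libraries of Rbfox2 (37.4 to 45.5 CPM per kb) and Rbfox3 (39.1 to 49.4) overlapped, while that of Rbfox1 (56.7 to 71.2) lay above both.

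In other families, Celf4 stood at 45.1, Celf1 at 29.5 and Celf2 at 16.4 CPM per kb, and Khdrbs3 at 35.7 against 19.3 CPM per kb for Khdrbs1. Among the SR genes the lowest was Srsf10 at 12.8 CPM per kb. Neighbours in the middle of the SR order, such as Srsf6 at 32.9 and Srsf7 at 33.7 CPM per kb, overlapped across libraries. In the PTB family Ptbp2 stood at 10.4 and Ptbp1 at 7.30 CPM per kb, and in the NOVA family Nova2 stood at 9.95 and Nova1 at 8.73 CPM per kb.

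**Figure D1:**
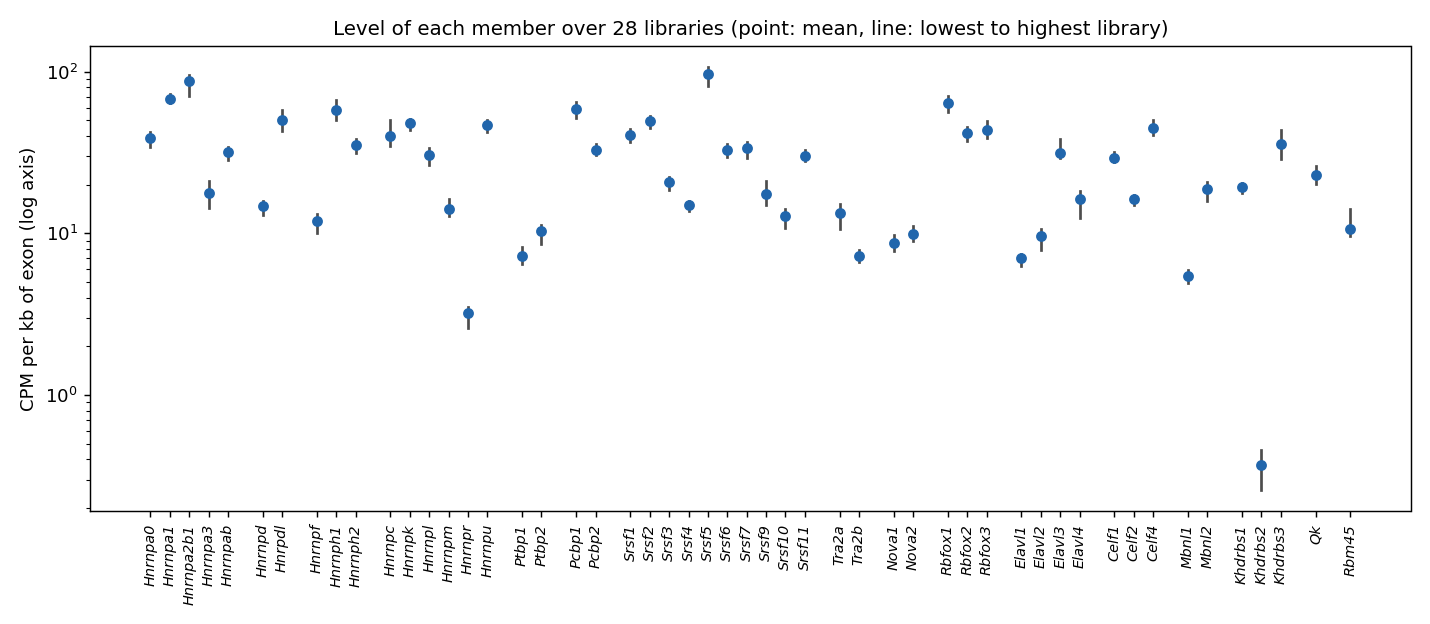
Level of each of the 51 members in CPM per kb of exon on a log axis, ordered by family, with the point at the mean of 28 libraries and the line from the lowest to the highest library. Srsf5 and Hnrnpa2b1 lie at the top, and Khdrbs2 lies far below all others at 0.368 CPM per kb.

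The members varied little between libraries of 1 genotype. The median coefficient of variation was 5.95% in HOM, 4.56% in HET and 3.88% in WT libraries, and 48 of 51 members stayed at or under 10% in all 3 groups. The 3 exceptions were Khdrbs2, Rbm45 and Hnrnpc.

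Homozygous cortex differed from wild type by a modest fall in 8 splicing regulators and a rise in none. The 8 were Rbfox1, Hnrnpk, Elavl2, Ptbp2, Hnrnph2, Celf4, Hnrnpr and Hnrnpa0, and each fell by between 5.75% and 10.3%. They made up 15.7% of the 51 members, where 3.71% of the 16110 genes tested were called lower, 3.9% higher and 7.61% in either direction (adjusted p under 0.05). The 8 averaged 71.7 to 387 CPM over all libraries, and genes of similar level were not compared. Among the 14065 genes with at least 1 CPM in at least 8 libraries, 4.83% were called lower. The other 43 members did not pass. The median log2 change over the 51 members was -0.03, against 0.01 over all genes tested. Of the 51 changes 34 were negative, against 7687 of 16110 over all genes. Libraries differed in this shift: the median log2 difference from the WT mean over the 51 members was -0.11 in HOM 2 and HOM 10, -0.07 in HOM 1 and -0.05 in HOM 3, but between -0.02 and 0.02 in the other 6 HOM libraries.

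By role, 5 of the 20 hnRNPs were called lower (median log2 change -0.05) and 0 of the 12 SR and TRA2 proteins (median 0.01). Of the 19 tissue-regulated genes, 3 were called lower (median -0.05). Of the 12 SR and TRA2 genes, 1 had an unadjusted p under 0.05 by edgeR, against 3962 of the 16110 genes tested. DESeq2 also called 0 of the 12. Of 10 members listed as neuron-enriched, 4 were called lower (median -0.11), namely Rbfox1, Elavl2, Celf4 and Ptbp2. The other 4 called genes came from the 41 members outside that list (median -0.01). The neuronal markers, 7 genes, had 1 called lower, Gad1, and their summed level had a median of 7130 CPM in HOM, 7330 CPM in HET and 7440 CPM in WT libraries.

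**Figure D2:**
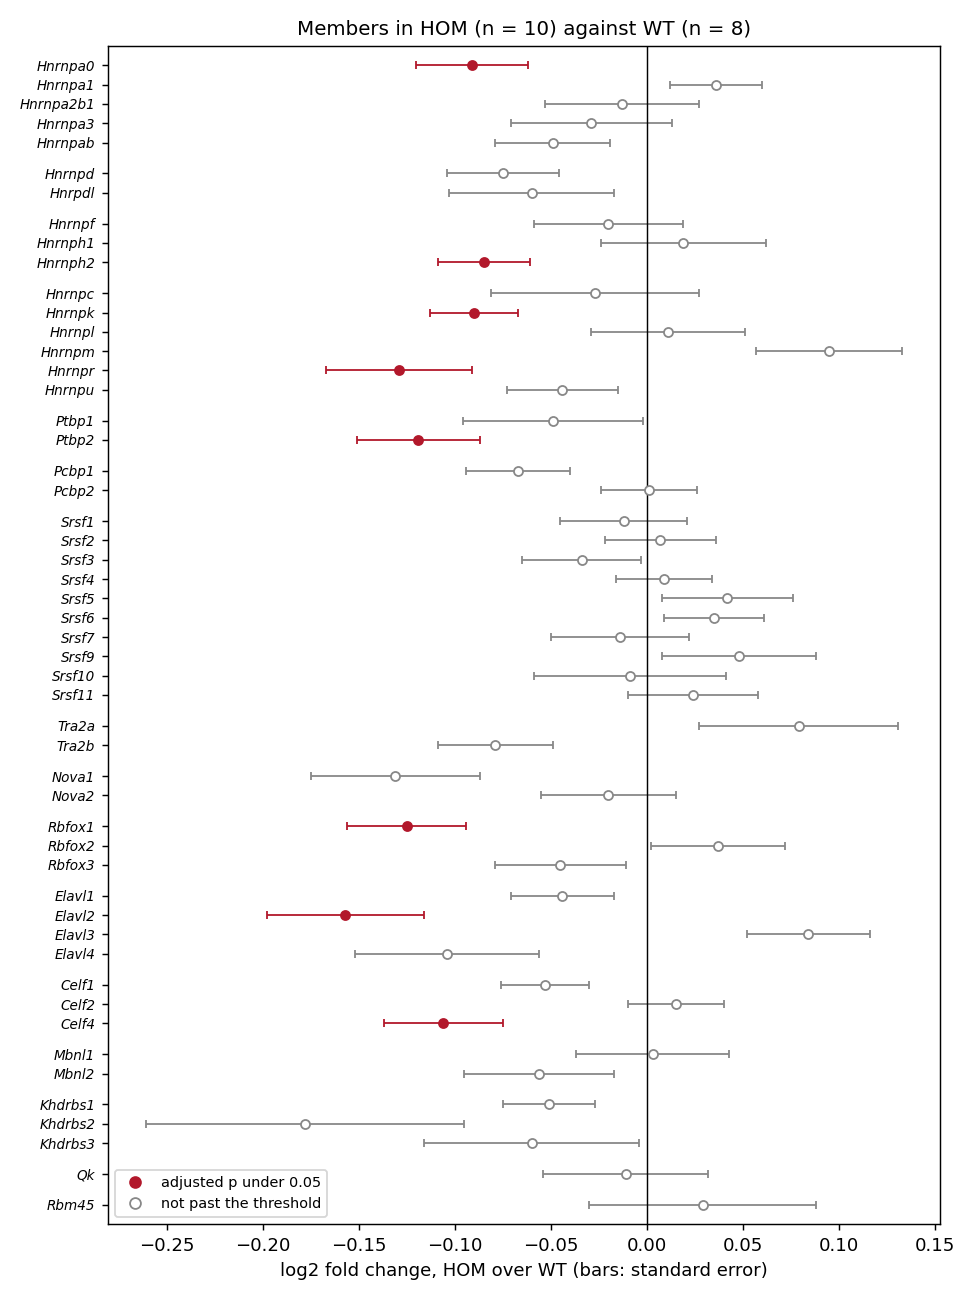
Log2 fold change of HOM over WT for all 51 members, grouped by family, with bars of 1 standard error and filled points for an adjusted p under 0.05. All 8 filled points lie left of 0, between -0.16 and -0.09, and none of the SR genes is filled.

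Gene positions below are those of the deposited table, on GRCm38. Among the hnRNPs, Hnrnpr (chromosome 4, 136310942 to 136340681, plus strand) encodes hnRNP R, which in motor neurons carries β-actin mRNA into axons. It ranged over 57.8, 70.2 and 72.8 CPM (lowest, median and highest library) in HOM, 61.7, 72.6 and 76.5 CPM in HET, and 73.6, 75.3 and 78.0 CPM in WT libraries. All 10 HOM libraries lay below all 8 WT libraries, while HET libraries overlapped both. The share of all genes that separate in this way was not counted, here or for the library counts of the genes below. The 3.71% of all genes called lower is a different measure. Its change in HOM was -0.13 on the log2 scale (SE 0.038, adjusted p = 0.0367, edgeR).

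Hnrnpk (chromosome 13, 58391142 to 58403343, minus strand) encodes a poly(C)-binding protein of transcription, splicing and translation. It ranged over 280, 306 and 318 CPM in HOM, 298, 313 and 328 CPM in HET, and 311, 327 and 332 CPM in WT libraries. All 10 HOM libraries lay below the WT mean and 7 below every WT library, so the groups overlapped at their edges. The change was -0.09 (SE 0.023, adjusted p = 0.0173). Its exons share 330 bases with Rmi1 on the other strand, and the strand setting of the counting is not given in the sources used here.

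Ptbp2 (chromosome 3, 119718742 to 119783388, minus strand) encodes the neuronal polypyrimidine tract binding protein, which replaces PTBP1 as neurons form. It ranged over 78.9, 93.5 and 98.2 CPM in HOM, 89.3, 95.4 and 98.5 CPM in HET, and 96.1, 98.9 and 103 CPM in WT libraries. The 7 HOM libraries at the low end lay below every WT library, and the other 3 lay among them. The change was -0.12 (SE 0.032, adjusted p = 0.0214). Its paralog Ptbp1 averaged 34.7 ± 2.40 CPM in HOM and 35.9 ± 2.43 CPM in WT and did not pass (adjusted p = 0.551).

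Hnrnph2 (X chromosome, 134601179 to 134607060, plus strand) encodes a protein that binds runs of G. It ranged over 137, 151 and 155 CPM in HOM, 147, 155 and 159 CPM in HET, and 151, 158 and 167 CPM in WT libraries. In WT, 7 of 8 libraries lay above every HOM library. The change was -0.09 (SE 0.024, adjusted p = 0.0307). Its close relatives Hnrnph1 and Hnrnpf did not pass (adjusted p = 0.833 and 0.793), and reads shared between such similar genes may have been split by the counting.

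Hnrnpa0 (chromosome 13, 58125879 to 58128556, minus strand) is a gene of 2.68 kb with no intron between its ends in GENCODE vM21. It ranged over 91.9, 102 and 107 CPM in HOM, 99.2, 104 and 114 CPM in HET, and 101, 109 and 111 CPM in WT libraries. Of its 10 HOM libraries, 4 lay below every WT library, the fewest among the 8 genes. The change was -0.09 (SE 0.029, adjusted p = 0.0485), the closest of the 8 to the threshold.

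Among the tissue-regulated genes, Rbfox1 (chromosome 16, 6809222 to 7412479, plus strand) encodes a neuronal and muscle splicing factor that binds UGCAUG. It ranged over 249, 269 and 297 CPM in HOM, 269, 280 and 304 CPM in HET, and 282, 293 and 313 CPM in WT libraries. In HOM, 8 libraries lay below every WT library and 2 among them. The change was -0.13 (SE 0.031, adjusted p = 0.016), the smallest p among the members. Rbfox2 (log2 change 0.04) and Rbfox3 (-0.05), whose protein is the neuronal marker NeuN, did not pass.

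Elavl2 (chromosome 4, 91250763 to 91400785, minus strand) encodes the neuronal Hu protein HuB, which binds AU- and U-rich RNA. It ranged over 65.5, 78.5 and 80.8 CPM in HOM, 74.5, 80.2 and 87.7 CPM in HET, and 79.4, 85.5 and 88.9 CPM in WT libraries. In WT, 7 of 8 libraries lay above every HOM library. The change was -0.16 (SE 0.041, adjusted p = 0.021), the largest fall among the 8.

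Celf4 (chromosome 18, 25477632 to 25753983, minus strand) encodes a brain-enriched CUG-BP and ELAV-like protein, whose loss in mice causes seizures. It ranged over 346, 372 and 404 CPM in HOM, 360, 387 and 413 CPM in HET, and 376, 404 and 433 CPM in WT libraries. The groups overlapped, with 6 HOM libraries below every WT library. The change was -0.11 (SE 0.031, adjusted p = 0.0345).

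**Figure D3:**
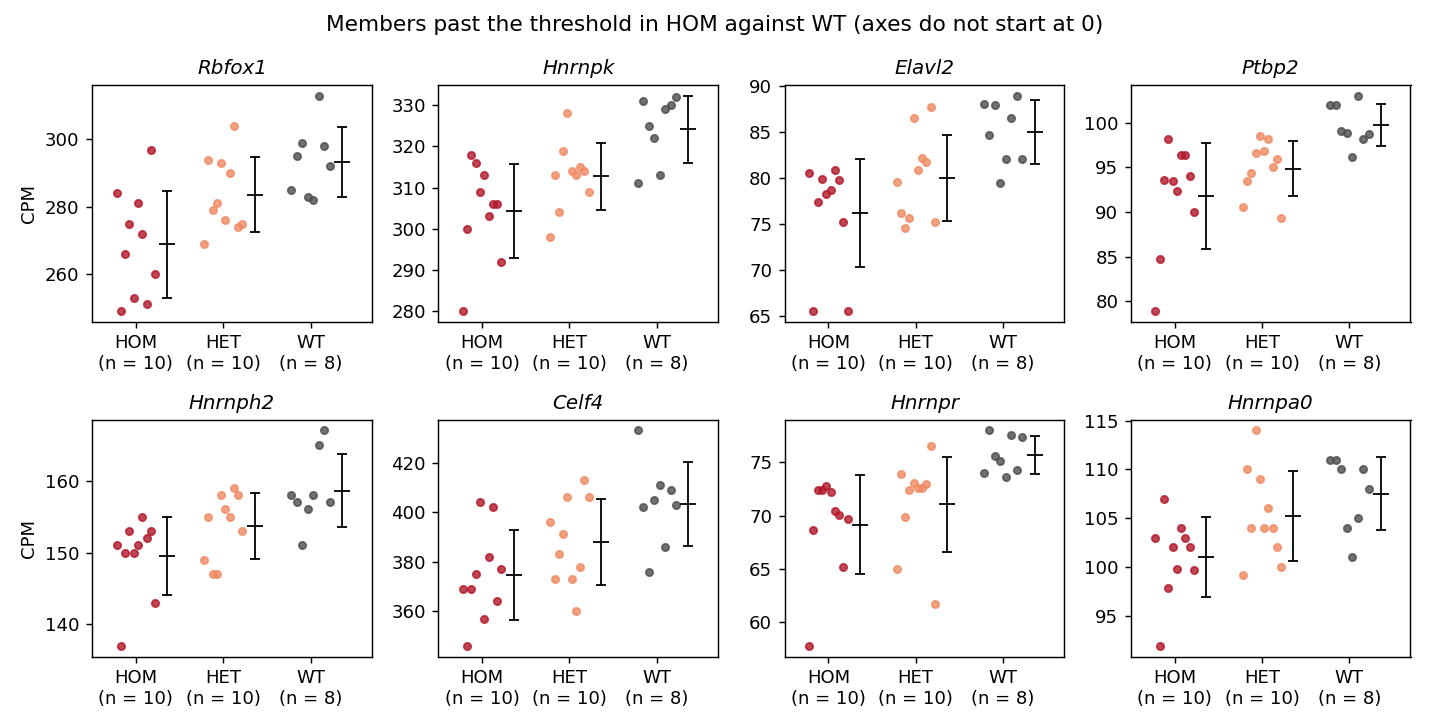
CPM of the 8 members called lower, 1 point per library, in HOM (n = 10), HET (n = 10) and WT (n = 8), with the mean and SD beside the points; the axes do not start at 0. HET means lie between HOM and WT means in all 8 panels, which is likely for genes chosen by the gap between HOM and WT. Only for Hnrnpr do the HOM and WT points not overlap.

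The lowest HOM value of every one of the 8 genes came from HOM 1 (3 genes) or HOM 2 (5 genes), the libraries with the lowest totals. Without both, 4 of the 8 passed: Hnrnpk, Ptbp2, Rbfox1 and Elavl2. Without WT 6 and HOM 3, only Hnrnpk and Hnrnpa0 passed. The call of Hnrnpa0 held in 10 of 28 fits that left out 1 library, not in that without WT 6 alone, and in 5 of 10 other settings. Leaving out single libraries gave 4 to 9 members called lower. The count was 4 without HOM 2 or without WT 6, 5 without WT 2 or WT 7, and 9 without HOM 7, which added Nova1. Hnrnpk, Rbfox1 and Elavl2 passed in all 28 of these fits.

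Markers of other cells moved with genotype too. In HOM against WT, 5 of 8 microglial, 2 of 6 astrocyte, 2 of 7 endothelial and 2 of 8 meningeal fibroblast markers were called higher, and 0 in these lists lower. Of the oligodendrocyte, choroid plexus and striatal markers 0 passed in either direction, and of 3 tested liver and muscle markers 1 was higher. The summed meningeal markers ranged over 47.6 to 173 CPM in HOM, 49.1 to 113 CPM in HET and 36.9 to 76.1 CPM in WT libraries, and none of these markers was at 0 in every library. With the scores of the meningeal, choroid plexus, striatal and endothelial lists as covariates, 0 of the 51 members and 102 genes in all passed. The log2 changes of the 8 were then -0.12 to -0.06 (adjusted p 0.149 to 0.361, edgeR), with Elavl2 at -0.09. At an unadjusted p under 0.05 there were 5 members lower, and the share of all genes at that level was not counted in this fit.

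The 6 members next in order of p did not pass. Nova1, a neuronal regulator that binds YCAY motifs, ranged over 68.1, 72.9 and 83.3 CPM in HOM, 68.4, 76.1 and 85.4 CPM in HET, and 74.0, 80.5 and 86.0 CPM in WT libraries (log2 change -0.13, adjusted p = 0.0649). It passed with DESeq2, with limma voom and without HOM 7 or WT 3. Hnrnpd, the gene of the AU-rich element binder AUF1, ranged over 95.7, 109 and 113 CPM in HOM, 102, 109 and 114 CPM in HET, and 107, 113 and 117 CPM in WT libraries (-0.07, adjusted p = 0.104). All 10 HOM values of Hnrnpd lay below the WT mean.

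Tra2b, an SR-like activator of exons rich in GAA repeats, ranged over 61.6, 64.9 and 70.7 CPM in HOM, 62.6, 67.4 and 73.2 CPM in HET, and 67.2, 68.3 and 72.9 CPM in WT libraries (-0.08, adjusted p = 0.105). Pcbp1, a poly(C)-binding protein, ranged over 95.0, 106 and 111 CPM in HOM, 103, 108 and 118 CPM in HET, and 105, 109 and 116 CPM in WT libraries (-0.07, adjusted p = 0.118). For both, 9 of 10 HOM libraries lay below the WT mean, and the groups overlapped.

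The other 2 had higher means in HOM. Elavl3, the neuronal Hu protein HuC, ranged over 208, 218 and 266 CPM in HOM, 212, 217 and 226 CPM in HET, and 202, 209 and 218 CPM in WT libraries (0.08, adjusted p = 0.102). Its highest value came from HOM 1, and without that library its log2 change was 0.05. Hnrnpm ranged over 104, 115 and 130 CPM in HOM, 109, 111 and 126 CPM in HET, and 102, 110 and 116 CPM in WT libraries (0.09, adjusted p = 0.117), and limma voom called it higher. Limma voom did not call Celf4.

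The other 37 members lay between a log2 change of -0.18 for Khdrbs2 (3.57 ± 0.51 CPM in HOM, 4.03 ± 0.482 CPM in WT, adjusted p = 0.183) and 0.08 for Tra2a (95.8 ± 6.23 CPM in HOM, 90.8 ± 6.91 CPM in WT, adjusted p = 0.364). The 10 classical SR genes stayed within -0.03 (Srsf3) and 0.05 (Srsf9). Srsf2, Srsf4 and Srsf7, for instance, had adjusted p-values of 0.917, 0.863 and 0.85. The hnRNPs with the most counts did not pass either. Hnrnpa2b1 averaged 577 ± 47.1 CPM in HOM and 582 ± 22.9 CPM in WT (adjusted p = 0.882), and Hnrnpu 535 ± 24.5 CPM in HOM and 552 ± 19.2 CPM in WT (adjusted p = 0.364). Mbnl1, Mbnl2, Qk and Rbm45 had adjusted p-values of 0.974, 0.38, 0.903 and 0.802. A p that misses the threshold does not show that levels were equal.

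**Figure D4:**
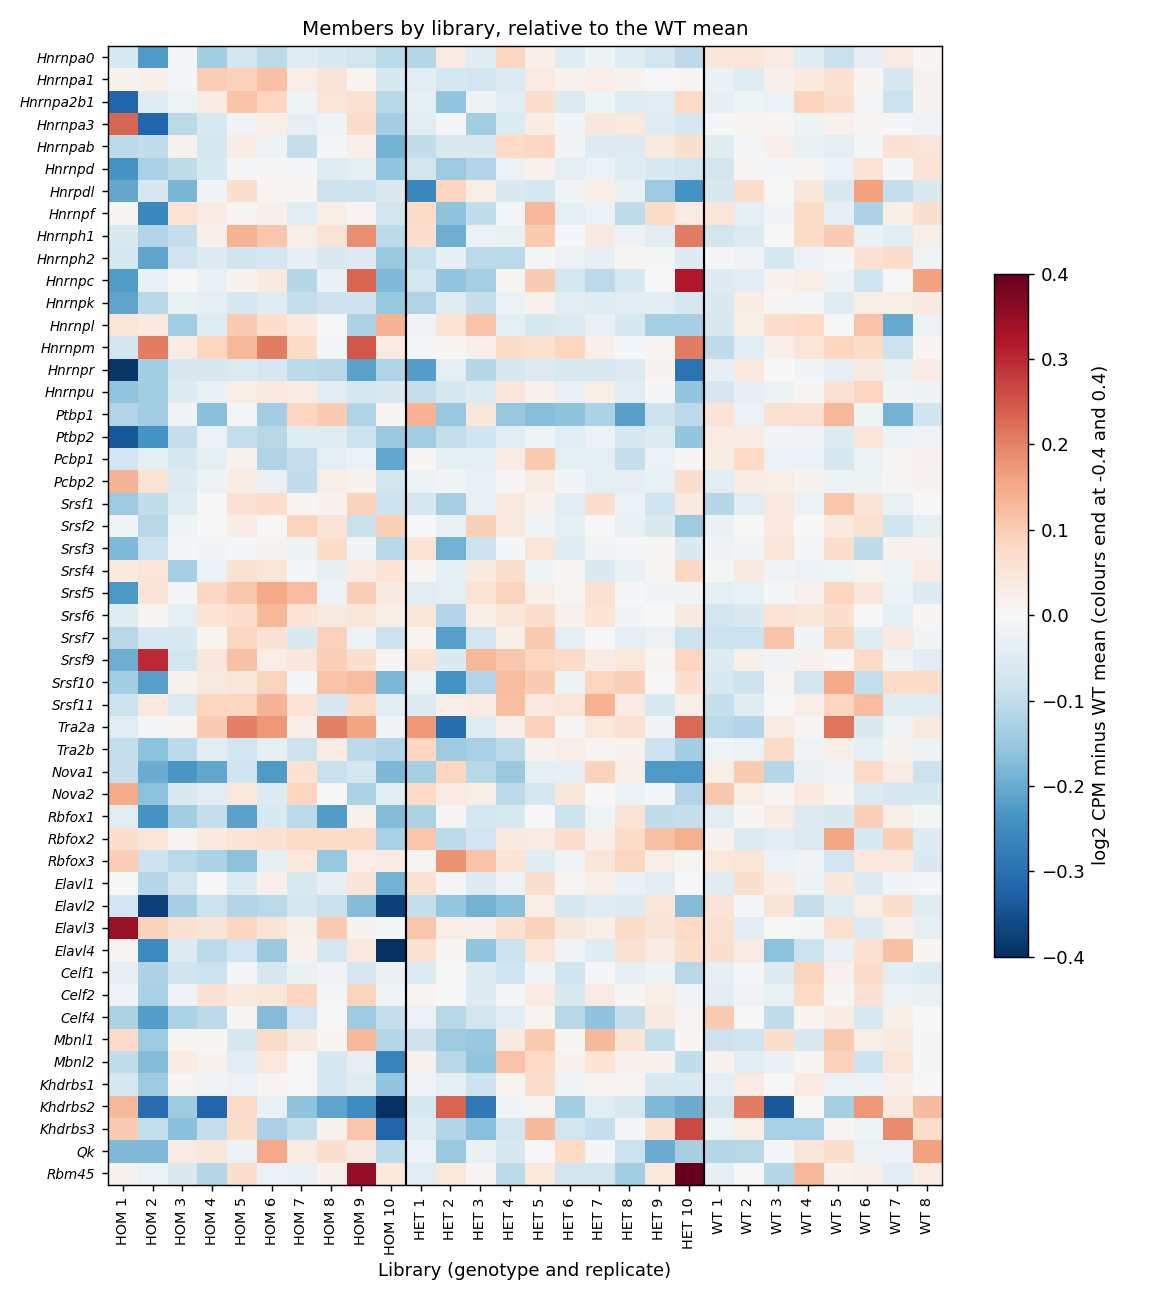
Log2 CPM of each member (down) in each library (across: HOM, HET, WT) minus its WT mean, with colours ending at -0.4 and 0.4. Blue runs across most HOM columns for Hnrnpk, Hnrnpr, Ptbp2, Rbfox1 and Elavl2. Of the 51 members, 41 lie below the WT mean in HOM 10 and 40 each in HOM 2 and HOM 3. The lowest HOM count is 21, in HOM 5 and HOM 6. The counts of WT libraries run from 20 in WT 5 to 37 in WT 1.

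Heterozygous cortex showed no called change. In HET against WT, 0% of the 16110 genes and 0 of the 51 members passed, in either direction, by the edgeR test. At an unadjusted p under 0.05 there were 1547 of the 16110 genes, 750 of them lower. Among the 1547 were 5 of the 51 members, all lower. Counted in either direction, the share of members was near that of all genes. DESeq2 called 12 genes and limma voom 14, and neither called a member. For the 8 genes called in HOM, the HET log2 changes were -0.09 for Elavl2 and Hnrnpr, -0.07 for Ptbp2, -0.06 for Celf4, -0.05 for Rbfox1 and Hnrnpk, -0.04 for Hnrnph2 and -0.03 for Hnrnpa0.

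In HOM against HET, 6 genes passed (0.0372%, of which 0.0124% higher and 0.0248% lower), and 0 members. At an unadjusted p under 0.05 there were 1375 of the 16110 genes, 604 of them lower. Among these were 5 members lower and 1 higher. DESeq2 called 50 genes here and limma voom 53, and neither called a member. The HET mean lay between the HOM and WT means for 8 of the 8 called genes and for 32 of all 51 members. The 8 were chosen by their gap between HOM and WT, which makes a HET mean in between likely. The share of all genes with such an order was not counted. These comparisons also share libraries, so the order is a description.

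A straight line on the number of mutant alleles, fitted over all 28 libraries, called 7.78% of genes (3.99% higher and 3.79% lower). Among the members 8 were called lower, the same 8 genes, and 0 higher. Their slopes ran from -0.08 per allele on the log2 scale for Elavl2 (SE 0.020, adjusted p = 0.0181) to -0.04 for Hnrnph2 (SE 0.012, adjusted p = 0.0268) and Hnrnpk (SE 0.011, adjusted p = 0.015). The slope rests largely on the same HOM and WT libraries as the comparison above.

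The wider splicing machinery was read from 4 lists, beside 3.71% of all genes called lower and 3.9% higher in HOM against WT. The shares in these lists were near or under those of all genes and were not tested against them. Of 36 core spliceosome genes, 1 was called lower and 0 higher. This was Snrpb2, a U2 snRNP protein (21.6 ± 0.928 CPM in HOM, 22.3 ± 1.0 CPM in HET, 23.7 ± 0.965 CPM in WT, log2 change -0.13, adjusted p = 0.0129). Of 27 SR kinases and related regulators, 1 was lower and 0 higher. This was Rsrc1, an arginine- and serine-rich splicing protein (50.6 ± 1.59 CPM in HOM, 52.4 ± 1.8 CPM in HET, 54.5 ± 2.34 CPM in WT, -0.11, adjusted p = 0.0144). Of 39 other RNA-binding regulators and 16 factors of nonsense-mediated decay, 0 passed in either direction by edgeR.

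The balance between paralogs was read within each library, as the log2 ratio of the CPM of 1 family member over another. Over 34 pairs in 12 families, 14 had p under 0.05 and 9 an adjusted p under 0.05 in HOM against WT (exact permutation test with 43758 regroupings, two-sided, adjusted over the 34 pairs). The share among ratios of other gene pairs was not counted. Of single genes, 3962 of 16110 had an unadjusted p under 0.05 by edgeR in HOM against WT. Several of the 9 pairs hold a gene that was called alone, so they partly restate those calls. Pairs that share a gene are not independent, and the ratios were added with the results of single genes known.

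Elavl2 over Elavl3 moved furthest. The log2 ratio was -1.77, -1.50 and -1.39 (lowest, median and highest) in HOM and -1.41, -1.29 and -1.23 in WT libraries. HET libraries averaged -1.45 ± 0.08. In HOM, 9 of 10 libraries lay below every WT library. The difference was -0.24 (SE 0.047, exact permutation p = 0.000137, adjusted p = 0.00466), and it passed in all 20 settings that left out 1 or a pair of libraries. None of the ratios, here or below, was tested with the 4 marker scores as covariates. In that setting 0 members passed alone, so the counts of settings do not cover it.

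Tra2a over Tra2b was higher in HOM, at 0.45, 0.54 and 0.66 against 0.30, 0.37 and 0.58 in WT libraries, although neither gene passed alone. All 10 HOM ratios lay above the WT mean, and the groups overlapped. The difference was 0.16 (SE 0.040, exact permutation p = 0.00133, adjusted p = 0.0225), and it passed in 19 of 20 settings. TRA2A and TRA2B are close paralogs that regulate many of the same exons.

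Rbfox1 over Rbfox2 was lower in HOM, at -0.48, -0.32 and -0.23 against -0.40, -0.16 and -0.03 in WT libraries. All 10 HOM ratios lay below the WT mean, and 3 lay below every WT ratio. The difference was -0.16 (SE 0.049, exact permutation p = 0.00416, adjusted p = 0.0322), and it passed in 14 of 20 settings.

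Celf2 over Celf4 was higher in HOM by 0.12 (SE 0.038, adjusted p = 0.0322, exact permutation test), and 4 of 10 HOM ratios lay above every WT ratio. Celf1 over Celf2 was lower by 0.07, with a difference of -0.07 (SE 0.020, adjusted p = 0.0322, exact permutation test). They passed in 14 and 15 of 20 settings. The other 4 pairs past the threshold held in fewer settings. They were Elavl3 over Elavl4 at 0.19 (11 of 20 settings), Elavl1 over Elavl2 at 0.12 (10 of 20), Elavl1 over Elavl3 at -0.13 (12 of 20) and Hnrnpa0 over Hnrnpa1 at -0.13 (9 of 20). Ptbp1 over Ptbp2 (0.07, adjusted p = 0.277, exact permutation test) and Nova1 over Nova2 (-0.11, adjusted p = 0.0635) did not pass. In the 20 settings the number of pairs past the threshold ran from 1, without WT 2, to 12.

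**Figure D5:**
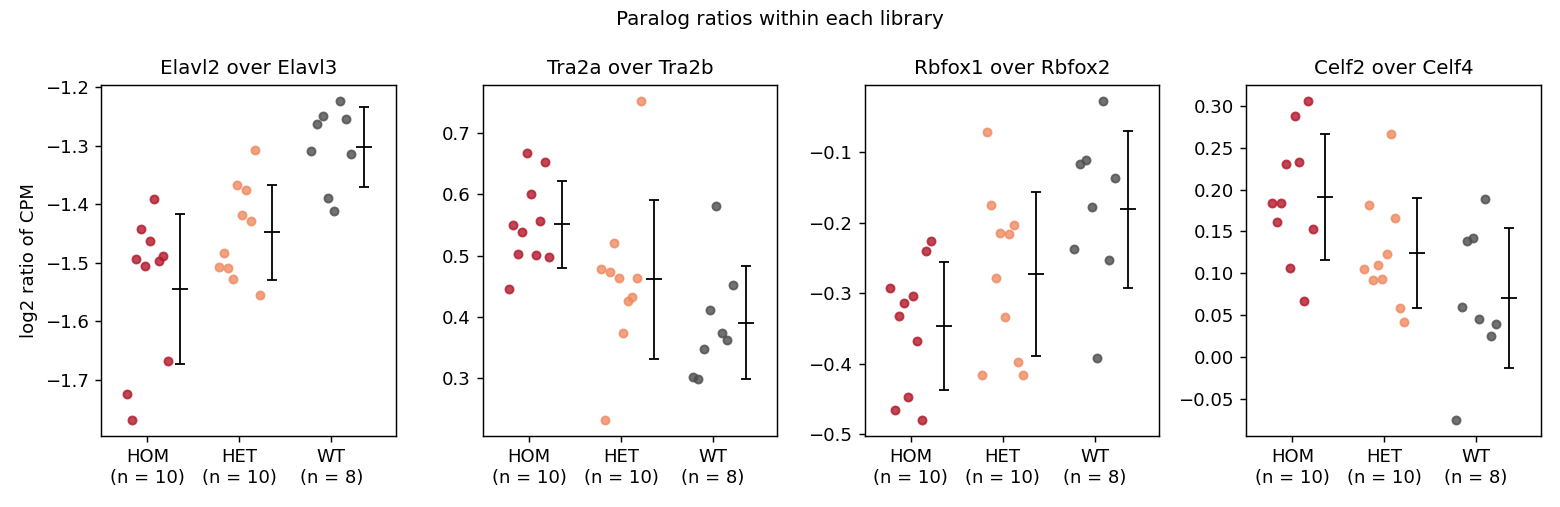
Log2 ratio of the CPM of a family member over its paralog, 1 point per library, in HOM (n = 10), HET (n = 10) and WT (n = 8), with the mean and SD beside the points. For Elavl2 over Elavl3, 9 of 10 HOM points lie below every WT point; the other 3 panels overlap more.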

How the data were processed

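PolyA RNA of frontal cortex was sequenced from stranded mRNA libraries made with a shortened fragmentation, per the labels' protocols. Reads were trimmed with Trim Galore 0.4.3 and aligned with HISAT2 2.0.5 to GRCm38, per the submitters' processing notes. Which tool counted the reads, with what strand setting and annotation, is not stated there. The authors deposited raw counts for each gene and library, whole numbers with no scaling, as the values show. With the strand setting unknown, it is also unknown whether reads of genes that overlap on opposite strands were told apart. Among the members this concerns Elavl1, Hnrnpab, Hnrnpk, Hnrnpu, Pcbp2, Ptbp1 and Srsf2.

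Of 25965 table rows, 57 identifiers in several rows were summed, Qk among them, so that 52 rows gave the 51 members. Each of the 28 columns matched the title of 1 library, whose genotype gave the group. All pairs of libraries differed by more than sampling noise (lowest chi-square per degree of freedom 6.39, 378 pairs, 14902 genes). Totals ran from 30.46 to 74.91 M counts, and the biological coefficient of variation was 8.44%.

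Genes were filtered with filterByExpr, scaled by TMM and tested with edgeR 4.0.16 (R 4.3.3, quasi-likelihood test, robust, two-sided) in 1 fit of 28 libraries, with 1 mean for each genotype and no covariates. A second fit tested a slope on 0, 1 or 2 alleles. Benjamini-Hochberg adjustment ran over the 16110 genes, with a threshold of 0.05. The fit was also run on simulated data with changes larger than those of the called members, so that run does not cover changes of their size. CPM use TMM-scaled totals, and CPM per kb divides them by the union of exons in GENCODE vM21. Promoter windows are from RefSeq (GRCm38.p6).

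Full values are given for members past the threshold in any test and for the 6 with the next smallest p in HOM against WT, and family ranges for the rest. Pathway genes come from 4 lists and are named only where past the threshold. The members, lists and tests were chosen with earlier results of these data known. The paralog ratios were added later with an exact permutation test.

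The alternatives were DESeq2 1.42.0, edgeR with DESeq2 size factors, no count filter, at least 1 CPM in at least 8 libraries, limma 3.58.1 voom with quality weights, a replicate block, 4 marker scores, only the groups compared, each library left out, and without WT 6 and HOM 3. The fit without HOM 1 and HOM 2 was chosen after seeing the data.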

Additional observations from a re-analysis of the deposited data

Results flagged for a closer look

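In 16 of 153 groups of values (51 members in 3 genotypes, 10.5%), the highest or lowest library stood apart from the rest by Dixon's criterion at 95%. Chance flags about 1 in 20 groups, and members are not independent of each other.

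Hnrnpc and Rbm45 were both flagged as high in HOM 9 and HET 10, while in WT 8 Hnrnpc was flagged and Rbm45 was not. Hnrnpc stood at 206 CPM in HOM 9 (next library 180 CPM), at 219 CPM in HET 10 (next 188 CPM) and at 196 CPM in WT 8 (next 178 CPM). Rbm45, an RNA-binding protein found in inclusions of amyotrophic lateral sclerosis, stood at 25.5 CPM in HOM 9 (next 20.9 CPM) and at 27.0 CPM in HET 10 (next 20.6 CPM). Hnrnpm was also highest in HET 10, at 126 CPM (next 116 CPM).

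HOM 1 and HOM 2, the libraries with the lowest totals, gave 5 of the flags. In HOM 1, Hnrnpr was low at 57.8 CPM (next 65.2 CPM), Srsf5 low at 327 CPM (next 377 CPM) and Elavl3 high at 266 CPM (next 225 CPM). In HOM 2, Hnrnpf was low at 30.8 CPM (next 35.0 CPM) and Celf2 low at 387 CPM (next 419 CPM).

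The other flags were single values. Srsf4 was low in HOM 3 at 48.9 CPM (next 52.4 CPM), and Rbfox2 low in HOM 10 at 304 CPM (next 335 CPM). In HET 2, Srsf6 was low at 144 CPM (next 155 CPM) and Khdrbs2 high at 4.70 CPM (next 4.03 CPM). Tra2a was high in WT 5 at 105 CPM (next 93.1 CPM).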

How the results depend on the processing

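The log2 changes followed across settings, those of 14 members in HOM against WT and of the 8 called members for the slope, kept their direction under every alternative run. Other members were not followed. In HOM against WT, where 8 members were lower and 1226 genes passed, the counts were 0 members and 102 genes with 4 marker scores as covariates, 2 and 509 without WT 6 and HOM 3, 4 and 876 without HOM 1 and HOM 2, and 4 with only the 2 groups compared. For the slope (8 members, 1254 genes) they were 0 and 121 with the marker scores, 4 and 608 without WT 6 and HOM 3, and 4 and 891 without HOM 1 and HOM 2. Limma voom called 1 member, Hnrnpm, higher in both. The causes were not tested.

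In HET against WT (0 genes) DESeq2 called 12, limma voom 14, the filter of 1 CPM 1, the 2 groups alone 4, and the fit without HOM 1 and HOM 2 gave 2. In HOM against HET (6 genes) DESeq2 called 50, limma voom 53 and the fit with marker scores 3.

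Leaving out single libraries gave 595 to 1345 genes and 4 to 9 members lower in HOM against WT, 681 to 1401 genes and 5 to 9 members for the slope, 0 to 3 genes in HET against WT and 3 to 15 in HOM against HET. Paralog pairs past the threshold (9) numbered 1 to 12 when single libraries were left out, 3 without WT 6 and HOM 3, and 3 without HOM 1 and HOM 2. The pairs were not tested with the marker scores as covariates.

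Libraries share replicate numbers across genotypes, and the labels do not say whether a number marks a pair. Deviations of same-numbered libraries correlated at -0.158 to 0.126 for HOM and WT and at -0.0476 to 0.183 for HET and WT. For HOM and HET they correlated at -0.164 to 0.134. These correlations were over 0.1 in 1 of 8, 1 of 8 and 3 of 10 pairs, and 0, 0 and 3 libraries correlated best with their own number. A shared litter or batch was not tested. With the replicate number as a block, 737 genes passed in HOM against WT and 821 for the slope. The block left 7 of the 8 members, without Hnrnpa0.

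In HET the members' log2 changes lay between -0.10 and 0.06 and did not pass by edgeR. The counts per gene do not show which isoforms changed.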
